A study of Mus musculus with 12 samples.

Results

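The cytosolic ribosomal protein genes of mouse extraembryonic endoderm stem (XEN) cells were followed through exposure to BMP4 and through a flow sort. They were taken as every gene name on the array that starts with Rpl or Rps followed by a digit, plus Rplp1 and Rplp2, without the S6 kinase genes and without names marked as pseudogenes. This gave 76 genes with 131 probes, of 29527 gene symbols on the array. A probe entered the tests where its signal was above background (detection p under 0.01) on at least 3 arrays, and 73 of the 76 genes passed. These were 43 genes for proteins of the large subunit and 30 for proteins of the small subunit, and each was represented by its brightest passing probe, ranked by mean normalised log2 signal over the 12 arrays. The genes Rpsa and Rplp0 were not analysed here.

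The cytosolic ribosome is built in the nucleolus from ribosomal RNA and the proteins of this family, most of them present once in each ribosome. Their mRNAs are abundant and short and begin with a run of pyrimidines, the terminal oligopyrimidine (TOP) motif, through which the kinase complex mTORC1 and the RNA-binding protein Larp1 set their translation. MYC is a known activator of their transcription and of ribosome assembly genes. Ribosomal proteins that are not built into ribosomes are mostly degraded, and Rpl5 and Rpl11 can then bind Mdm2 and stabilise p53.

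XEN cells are stem cell lines of the primitive endoderm, the embryonic tissue that gives rise to parietal and visceral endoderm. BMP4 is a secreted signal of the TGF-beta superfamily. All 12 samples carried an Afp::GFP transgene, a reporter named for the alpha-fetoprotein gene, which marks visceral endoderm, and all were grown in N2B27 medium. There were 3 arrays of GFP positive cells sorted after BMP4, 3 of GFP negative cells sorted after BMP4, 3 of unsorted cells given BMP4 and 3 of unsorted untreated cells. How much BMP4 was given, and for how long, is not given in the sources used here. Replicates of a group are not said to be separate cultures, so p-values measure only the spread between these arrays, which may be technical.

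The signal on a bead array is the mean brightness of the beads that carry a probe. Values below are background-corrected signal, log2 transformed and then quantile normalised. The median signal of all probes was 22.6 to 32.4 on sorted arrays and 53.4 to 60.9 on unsorted arrays, and the number of arrays limits the precision. All 10 markers of XEN cells and primitive endoderm were detected on every array of every group. The pluripotency markers Pou5f1, Nanog and Esrrb and 4 of 5 trophoblast markers were detected on no array, while Zfp42 was detected on all of them and Cdx2 on the 3 BMP4 arrays alone. Of 6 fibroblast and mesoderm markers, Twist1 was detected on every array and the other 5 on none. Of 10 visceral endoderm markers, 9 were detected on every GFP positive array, 9 on every GFP negative array, 10 on every BMP4 array and 6 on every untreated array. Of 5 parietal endoderm markers these counts were 4, 4, 5 and 5. The part of these cell types in the results was not tested. In bulk RNA, fewer cells of a type and less RNA per cell cannot be told apart.

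Promoters of the family are shown because its members are known for shared sequence at their start sites. RefSeq promoter sequences of build GRCm38.p6 were matched for 56 of the 76 genes. The pyrimidine run was searched as CTTTC on the strand of the gene, within 15 bases on either side of the start. It was present in 15 of 56 members (26.8%), against 1073 of 27025 promoters of all genes (3.97%). The letters CCGGAAG, a form of the site that ETS factors such as GABP bind, were searched separately on either strand of the 300-base promoter. They were present in 23 of 56 members (41.1%), against 2465 of 27025 promoters (9.12%). The 6 windows printed here run from 70 bases before to 30 bases after the start, 5′ to 3′, with both motifs in capitals. Rpl7a and Rps15 were higher with BMP4, Rps28 and Rpl36al lower, and Rpl38 and Rpl11 did not pass the test.
Rpl7a (chr2:26910737-26910836, plus strand): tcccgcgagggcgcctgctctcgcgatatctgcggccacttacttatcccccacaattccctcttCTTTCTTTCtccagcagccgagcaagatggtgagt
Rps15 (chr10:80292361-80292460, plus strand): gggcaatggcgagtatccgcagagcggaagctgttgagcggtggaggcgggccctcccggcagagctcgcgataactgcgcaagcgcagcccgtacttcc
Rps28 (chr17:33824533-33824632, minus strand): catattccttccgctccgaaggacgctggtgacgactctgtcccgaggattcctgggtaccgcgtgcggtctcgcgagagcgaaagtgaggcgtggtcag
Rpl36al (chr12:69184038-69184137, minus strand): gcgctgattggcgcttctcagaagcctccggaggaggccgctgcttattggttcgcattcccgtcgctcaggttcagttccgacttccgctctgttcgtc
Rpl38 (chr11:114668510-114668609, plus strand): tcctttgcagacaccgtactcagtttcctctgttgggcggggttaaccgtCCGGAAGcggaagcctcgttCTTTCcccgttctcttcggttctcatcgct
Rpl11 (chr4:136053364-136053463, minus strand): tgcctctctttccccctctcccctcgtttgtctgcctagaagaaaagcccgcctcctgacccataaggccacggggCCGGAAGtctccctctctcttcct
Rpl7a carries overlapping copies of the pyrimidine motif at its start, Rpl38 carries both motifs, and Rpl11 carries the ETS letters. Neither motif is in the printed windows of Rps15, Rps28 and Rpl36al. Of the members with a promoter entry, the pyrimidine motif was in 2 of 9 that were higher with BMP4, in 0 of 2 that were lower and in 13 of 42 that did not pass. The ETS letters were in 1 of 9 higher, 0 of 2 lower and 21 of 42 that did not pass. A match is a description of these letters and says nothing of binding.

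The 73 measured genes were detected on all 12 arrays. Their mean raw signal ran from 168 for Rps15a to 30169.7 for Rplp1, with a median of 18609. Of these, 32 genes had a mean signal over 20000, where the highest signal of any probe on an array was 31174.7 to 35972.5. Whether signals this close to the top of the scanner's range compress differences was not tested, and 110 other genes at least as bright as the lower quartile of the members are given beside the main counts. Among the single probes that represented the 10597 tested genes, those of the members took 9.47% to 11.0% of the summed raw signal on an array. Their median log2 signal was 14.03, 14.01 and 14.03 on GFP positive arrays and 14.03, 14.02 and 13.99 on GFP negative arrays. It was 14.24, 14.22 and 14.24 on BMP4 arrays and 14.26, 14.28 and 14.30 on untreated arrays. Sorted arrays were thus the lower ones for the median member, and both sorted fractions overlapped each other.

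**Figure D1:**
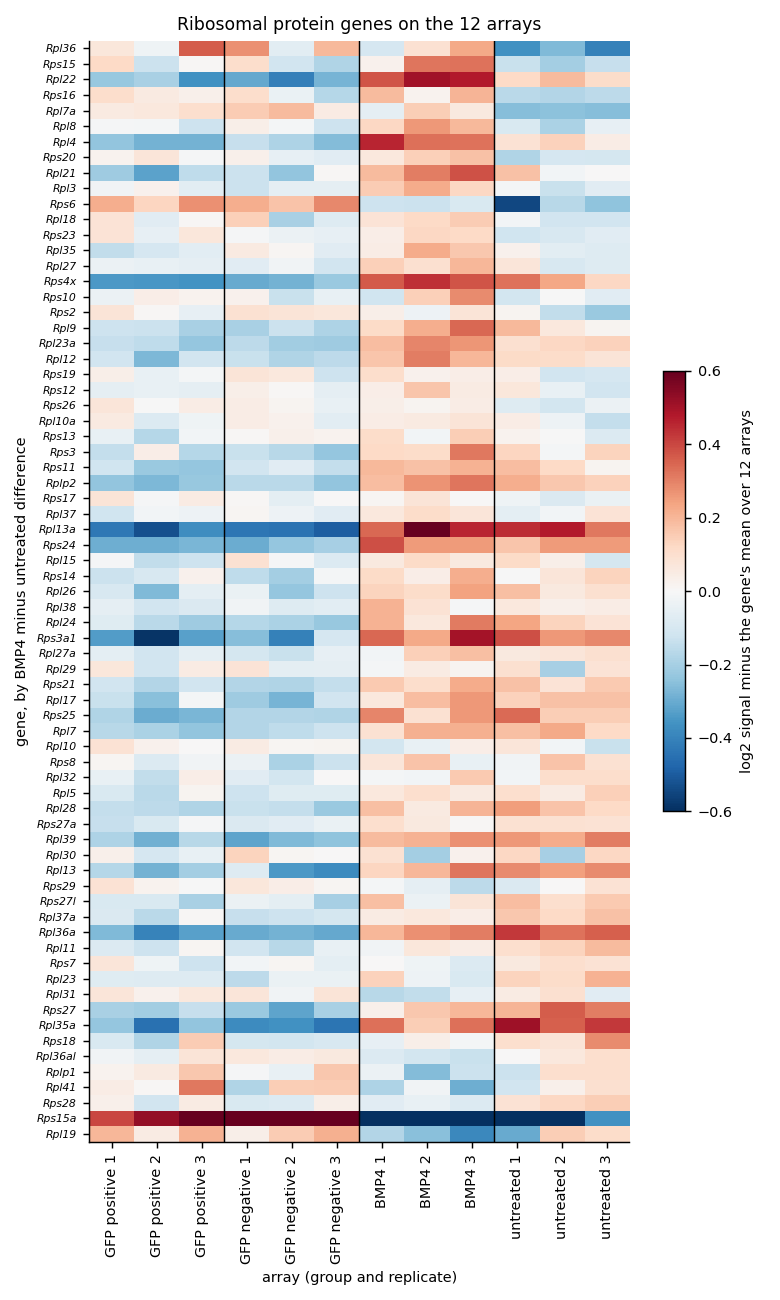
Log2 signal of 71 of the 73 cytosolic ribosomal protein genes (down the page, ordered by their BMP4 minus untreated difference) on each of the 12 arrays (across), as the difference from the gene's mean over 12 arrays, with the colour scale held to 0.6 on either side of 0. The BMP4 and untreated columns differ little for most genes. Rps15a, read by a dim probe (mean raw signal 168), stands apart between sorted and unsorted arrays, with a log2 difference of 1.49.

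Rpl14, Rpl6 and Rpl3l were detected on 0 of 12 arrays. The single-probe raw signal of Rpl14, a large subunit gene, was 24.6 to 72.5 over the 12 arrays, that of Rpl6, another large subunit gene, 17.7 to 52.9, and that of Rpl3l, the muscle paralog of Rpl3, 15.4 to 42.1. These are signals not well above background. They say nothing of whether Rpl14 and Rpl6, which encode parts of every cytosolic ribosome, are expressed in these cells.

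The first comparison asked how ribosomal protein mRNAs stood after BMP4 was added to unsorted XEN cells. In limma, with p-values adjusted by Benjamini-Hochberg over all genes and a threshold of 0.05, 15 of 73 genes were higher with BMP4 and 2 were lower, while the split was 9 higher and 0 lower with scale normalisation and 7 higher and 8 lower with cyclic loess normalisation. The share called, 23.3%, stands beside 58.9% of all 10597 genes tested, of which 30.2% were higher and 28.7% lower. Among the 110 other bright genes, 62 were called (56.4%), 38 of them higher and 24 lower. The groups of arrays did not overlap for 30 of 73 members (41.1%), against 61.3% of all genes. The 17 called members (23.3%) were also not overlapping, while 55.9% of all genes were both called and not overlapping. At an unadjusted p under 0.05 there were 21 members, against 62.9% of all genes. By its brightest probe, no member was called with a log2 difference of at least 1, against 9.98% of all genes.

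The differences were small. The median member differed by 0.05 on the log2 scale, with quartiles of -0.05 and 0.15 and a range of -0.26 to 0.42. This median turned to -0.08 with cyclic loess normalisation. The median over all genes was 0.03, within a range of -5.55 to 6.03. Without regard to sign the median difference was 0.11 for members, 0.23 for the other bright genes and 0.31 for all genes. The median standard error of a member was 0.07, against 0.09 for all genes. Large subunit genes had 9 higher and 1 lower of 43, with a median of 0.03, and small subunit genes 6 higher and 1 lower of 30, with a median of 0.08. Both subunit medians were below 0 with cyclic loess normalisation, at -0.10 and -0.07. The count of higher members fell to 9 without BMP4 replicate 2 and to 9 without BMP4 replicate 3. The count of lower members was 5 without untreated replicate 1, 0 without untreated replicate 2 and 1 without any one of 6 other arrays, which were untreated replicate 3, BMP4 replicates 2 and 3, GFP positive replicate 1 and GFP negative replicates 2 and 3.

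Rpl36 encodes a small basic protein on the surface of the large subunit. Its log2 signal was 12.13, 12.33 and 12.46 on BMP4 arrays, against 11.87, 11.97 and 11.83 on untreated arrays. Every BMP4 array lay above every untreated array, and the difference was 0.42 ± 0.12 (SE, n = 3 and 3; limma adjusted p = 0.00807), or 1.34-fold. Rps15, a protein of the small subunit's head that is needed in human cells for export of the subunit's precursor from the nucleus, had 12.80, 13.09 and 13.10 on BMP4 arrays, against 12.64, 12.57 and 12.63 on untreated arrays. Its groups did not overlap, although the lowest BMP4 array came close to the untreated ones, and it differed by 0.38 ± 0.10 (adjusted p = 0.00531).

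Rpl22 binds RNA and has a paralog, Rpl22l1, which was not analysed here. Its signal was 10.53, 10.66 and 10.63 on BMP4 arrays, against 10.27, 10.34 and 10.27 on untreated arrays, a difference of 0.31 ± 0.07 (adjusted p = 0.00218). The spread within either group was small beside the gap between them. Rps16, whose tail reaches the decoding region of the small subunit, had 14.19, 14.02 and 14.20 on BMP4 arrays, against 13.83, 13.82 and 13.84 on untreated arrays, and differed by 0.31 ± 0.08 (adjusted p = 0.00499). The untreated arrays were nearly identical for this gene. Rpl7a, whose start carries the pyrimidine motif shown above, had 13.55, 13.75 and 13.66 on BMP4 arrays, against 13.34, 13.35 and 13.34 on untreated arrays. It differed by 0.30 ± 0.07 (adjusted p = 0.0021), and by 0.12 where the mean of its probes was used (adjusted p = 0.131, of 0.000867 to 0.131 over all alternatives).

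A further 3 large subunit genes were higher. Rpl8, which lies beside the peptidyl transferase centre, had 14.42, 14.55 and 14.49 on BMP4 arrays, against 14.20, 14.10 and 14.24 on untreated arrays (0.30 ± 0.07, adjusted p = 0.00296). Rpl3, which also reaches towards that centre, had 14.58, 14.65 and 14.56 on BMP4 arrays, against 14.42, 14.30 and 14.37 on untreated arrays (0.24 ± 0.07, adjusted p = 0.00681). Rpl4, which lines the exit tunnel, had 11.23, 11.10 and 11.10 on BMP4 arrays, against 10.86, 10.91 and 10.82 on untreated arrays (0.28 ± 0.07, adjusted p = 0.00262). None of these 3 genes had overlapping groups, and Rpl3 alone among them lost its call with scale and with cyclic loess normalisation. Over all alternatives run, the adjusted p of Rpl3 was 0.00445 to 0.259.

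Rpl21, a large subunit protein, had 10.89, 11.01 and 11.08 on BMP4 arrays, against 10.88, 10.68 and 10.70 on untreated arrays. The lowest BMP4 array and the highest untreated array all but met, the difference was 0.24 ± 0.09 (adjusted p = 0.0317), and the adjusted p over the alternatives was 0.0164 to 0.953. Rps20, a protein of the small subunit's head, had 14.65, 14.72 and 14.75 on BMP4 arrays, against 14.40, 14.48 and 14.47 on untreated arrays, and differed by 0.26 ± 0.07 (adjusted p = 0.00413), but by -0.33 with scale normalisation and -0.46 with cyclic loess normalisation. In both of these settings the other probe of Rps20, about as bright, ranked first, and it ran the other way. The remaining 5 higher members, among them Rps23, Rpl35, Rpl27 and Rps4x, had differences of 0.17 to 0.19, and those named here except Rps4x were named after their values were seen. Rpl27 and Rpl35 each lost their call in 14 of 23 alternatives (adjusted p 0.0131 to 0.766 and 0.0157 to 0.65), and Rps23 in 8 of 23 (adjusted p 0.0183 to 0.17). Rps4x, the X-linked protein of the small subunit, was at the edge of the threshold with an adjusted p of 0.0494, and lost its call in 19 of 23 alternatives (adjusted p 0.0204 to 0.552).

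**Figure D2:**
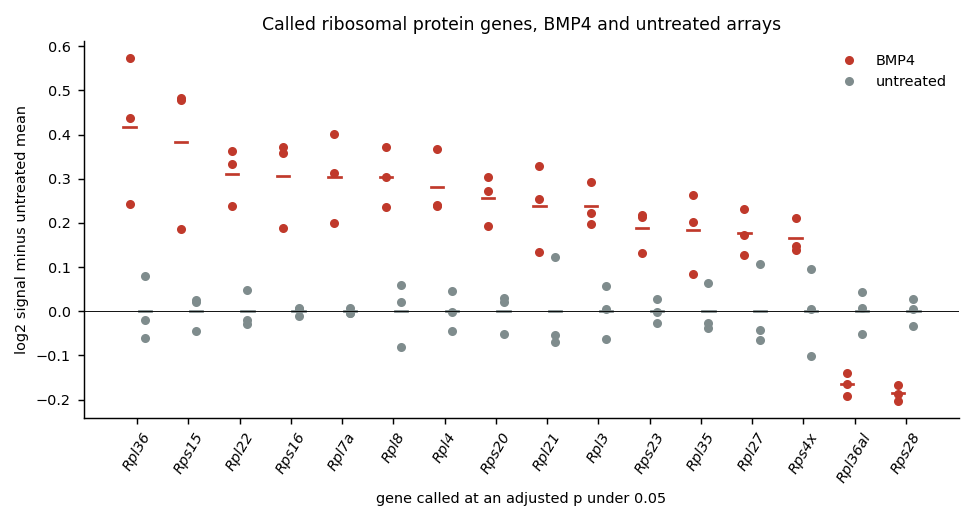
Log2 signal of 16 of the 17 ribosomal protein genes called between BMP4 and untreated arrays, as the difference from the untreated mean of each gene (vertical axis). Points are arrays, 3 BMP4 (red) and 3 untreated (grey), and dashes are group means. The 14 genes at the left were higher with BMP4, from 0.42 for Rpl36 to 0.17 for Rps4x, and Rpl36al and Rps28 were lower, by -0.16 and -0.19. With scale and cyclic loess normalisation Rps20 was lower.

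Both lower members differed little. Rps28, a small protein near the mRNA exit of the small subunit, had 14.20, 14.22 and 14.19 on BMP4 arrays, against 14.36, 14.40 and 14.42 on untreated arrays (-0.19 ± 0.07, adjusted p = 0.0325). Rpl36al, the autosomal paralog of X-linked Rpl36a, had 13.33, 13.30 and 13.28 on BMP4 arrays, against 13.42, 13.48 and 13.51 on untreated arrays (-0.16 ± 0.06, adjusted p = 0.0392). Arrays did not overlap for either gene. Rps28 lost its call in 8 of 23 alternatives (adjusted p 0.00981 to 0.337) and Rpl36al in 12 of 23 (adjusted p 0.0113 to 0.444).

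Paralogs and functional classes were read next. Rpl36a differed by -0.11 (95% confidence interval -0.25 to 0.03, adjusted p = 0.164), beside -0.16 for Rpl36al. Rps27 differed by -0.16 (adjusted p = 0.0749) and its p53-responsive paralog Rps27l by -0.07 (adjusted p = 0.422). Neither gene of this pair passed. Of the acidic stalk proteins, which recruit elongation factors, Rplp1 differed by -0.17 (interval -0.36 to 0.03) and Rplp2 by 0.09 (interval -0.05 to 0.22). Neither passed by its brightest probe. Another probe of Rplp1, at a raw signal of 28800.5, was called lower by -0.28 ± 0.08 (limma adjusted p = 0.0127 over probes). Its remaining probe, at 28371.2, differed by 0.18 ± 0.08 and was not called. With the mean of its probes Rplp2 passed at 0.33 (limma adjusted p = 0.00177). Rpl10, which joins the large subunit last, differed by -0.01 (interval -0.17 to 0.14), and Rpl39 of the exit tunnel by -0.04 (interval -0.18 to 0.10).

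None of 8 members chosen by name for a well-known role passed by its brightest probe. With the mean of their probes Rps3, Rps19 and Rps6 passed, Rps3 at 0.29 (adjusted p = 0.00647, of 0.00647 to 0.803 over all alternatives) and Rps19 at 0.57 (adjusted p = 3.51e-05, of 3.51e-05 to 0.829). Other probes were called higher for Rps3 (0.47), Rps19 (1.03), Rpl5 (0.24) and Rps6 (0.32 and 0.39). The Rps19 probe at 1.03 had a mean raw signal of 119 and was detected on 10 of 12 arrays. It enters the mean for Rps19 beside the brightest probe, at a raw signal of 24694, which was not called. Rps6, the substrate of the S6 kinases, had 13.19, 13.18 and 13.22 on BMP4 arrays, against 12.76, 13.14 and 13.07 on untreated arrays. It differed by 0.21 ± 0.09 (adjusted p = 0.0682), and passed in 5 of 23 alternatives (adjusted p 0.00237 to 0.335). The lowest untreated array was well below the other two. Rpl5 differed by -0.02 (95% interval -0.17 to 0.12) and Rpl11 by -0.11 (interval -0.26 to 0.03), the 2 proteins that bind Mdm2. Rps19, the gene most often mutated in Diamond-Blackfan anaemia, differed by 0.12 (interval -0.05 to 0.28). Rpl38, needed for translation of some Hox mRNAs in the mouse embryo, differed by 0.05 (interval -0.10 to 0.20), and Rpl10a of the L1 stalk by 0.10 (interval -0.05 to 0.26). Rps3, which lines the mRNA entry channel, differed by 0.10 (interval -0.08 to 0.28) and Rpl13a by 0.08 (interval -0.11 to 0.26).

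Of the members that did not pass by their brightest probe, Rpl19 had the largest difference. This protein forms a bridge between the subunits. It had 14.39, 14.31 and 14.18 on BMP4 arrays, against 14.26, 14.71 and 14.68 on untreated arrays, with 1 untreated array inside the range of the BMP4 arrays. The difference was -0.26 ± 0.11 (adjusted p = 0.0633), and it passed in 6 of 23 alternatives, among them the one without untreated replicate 1 (adjusted p 0.00231 to 0.598 over all). The direction depended on the probe. The other probe of Rpl19, at a raw signal of 6699, was called higher by 0.36 ± 0.09 (limma adjusted p = 0.00294 over probes), and the difference ran from -0.41 to 0.05 over the alternatives, the highest with the mean of its probes.

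The additional probes gave a measure of each gene that the selection by brightness had left aside. Of the 73 genes, 31 had more than 1 passing probe, with 40 other, lower-ranked probes in all, at raw signals of 59.6 to 28800.5. In a fit over all 15448 passing probes, 14 of the 40 were higher with BMP4 and 5 were lower, beside 56.6% of all probes called. The median of these 40 probes was 0.13, and 26 had the same sign as the brightest probe of their gene. For 7 of them the difference lay more than 0.5 from that of the brightest probe.

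Rps20 and Rps24 had probes called in both directions. The probe of Rps20 chosen as brightest differed by 0.26 at a raw signal of 24588 and its other probe by -0.30 ± 0.11 at 25044 (adjusted p = 0.0316 over probes). The other probes of Rps24, a protein of the small subunit's body, differed by 0.49 ± 0.11 and -0.48 ± 0.10, while its brightest did not pass at 0.07 ± 0.07. For these genes the direction thus depended on the probe. Among the lower-ranked probes, 1 of Rps19 differed by 1.03 ± 0.11 at a raw signal of 119, 1 of Rps27a by 0.69 ± 0.07 at 3751, and 1 of Rplp2 by 0.62 ± 0.11 at 1292. The brightest probes of these 3 genes did not pass, and for Rps27a, which encodes ubiquitin fused to a ribosomal protein, the brightest differed by -0.03. Ribosomal protein genes have many near-identical processed copies in the mouse genome. Whether a probe also binds such copies, or another transcript of the gene, was not tested, since probe sequences were not used here.

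**Figure D3:**
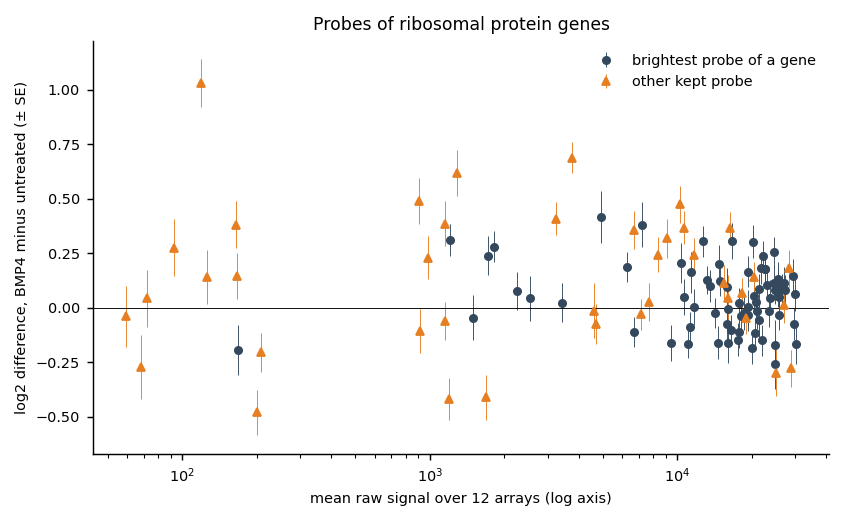
BMP4 minus untreated log2 difference (vertical axis, ± SE) against mean raw signal over 12 arrays (horizontal, log axis) for the 73 brightest probes (circles) and the 40 other passing probes (triangles) of the ribosomal protein genes. The brightest probes lie between -0.26 and 0.42, and the others between -0.48 and 1.03, the top value being the Rps19 probe with a signal of 119.

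Genes that supply and control ribosomes were counted in the same fit, from lists drawn up with earlier results of these data known. The counts of all 7 lists stand beside 58.9% of all genes called with BMP4, 30.2% higher and 28.7% lower. Mitochondrial ribosomal protein genes, whose products build the separate ribosome of mitochondria, had 29 higher and 6 lower of 68 tested and a median of 0.17, which was 0.18 with scale and 0.09 with cyclic loess normalisation. With scale normalisation 23 were higher and 3 lower. Mrps6 differed by 0.87 ± 0.08, Mrps25 by 0.86 ± 0.16, Mrps27 by 0.61 ± 0.09 and Mrpl1 by 0.61 ± 0.07, all higher with BMP4. Each of these 4 differences exceeded that of the brightest probe of any cytosolic member.

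Other mRNAs of the TOP class share the pyrimidine start and include elongation factors and RNA-binding proteins. Of 18 tested, 8 were higher and 1 lower, with a median of 0.17, which was 0.10 with cyclic loess normalisation, where 7 were higher and 2 lower. Nap1l1, a histone chaperone, differed by 0.82 ± 0.08, Rack1, a scaffold on the small subunit, by 0.52 ± 0.12, and Hnrnpa1, a splicing factor, by 0.47 ± 0.07. Vim, the intermediate filament vimentin, was the lower one, at -0.575 ± 0.07. Fau encodes a ribosomal protein made as a fusion to a ubiquitin-like protein, and lies outside the family as chosen here. Fau differed by 0.36 ± 0.08 (adjusted p = 0.00141).

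Of 10 genes for ribosomal RNA synthesis by RNA polymerase I, 5 were higher and 2 lower, with a median of 0.13, which was 0.06 with cyclic loess normalisation. The subunit genes Polr1c and Polr1b differed by 0.72 ± 0.10 and 0.385 ± 0.09, the initiation factor subunit Taf1d by 0.51 ± 0.08 and the initiation factor Rrn3 by -0.55 ± 0.10. Of 30 genes for ribosomal RNA processing and ribosome assembly, 6 were higher and 6 lower, with a median of 0.08. This split was 5 and 3 with scale normalisation, and the median was 0.02 with cyclic loess normalisation. Fbl, the rRNA methyltransferase fibrillarin, differed by 0.68 ± 0.06 and Mrto4, which acts in assembly of the stalk, by 0.52 ± 0.07. Pes1, a large subunit assembly factor, differed by -0.80 ± 0.08 and Ddx21, a nucleolar helicase, by -0.45 ± 0.11.

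Of 19 translation initiation factor genes, 8 were higher and 4 lower, with a median of 0.16. This split was 7 and 1 with scale normalisation, and the median was 0.09 with cyclic loess normalisation. Eif3c differed by 0.61 ± 0.07, Eif5a by 0.50 ± 0.08, the cap-binding protein gene Eif4e by 0.46 ± 0.13 and Eif5 by -0.42 ± 0.07. Of 19 genes in the list of MYC and mTORC1 control, 2 were higher and 10 lower, with a median of -0.20. The lower ones included Mxd4 and Mxd1, which encode antagonists of MYC, at -1.72 ± 0.08 and -1.10 ± 0.10. They also included Eif4ebp1, which encodes a translation repressor that mTORC1 inactivates, at -0.53 ± 0.07, and Tsc1, part of the complex that restrains mTORC1, was higher by 0.57 ± 0.08. Of 7 genes of the nucleolar stress and p53 list, 0 were higher and 3 lower, which were Ccng1 (-0.65 ± 0.10), Cdkn1a (-0.62 ± 0.07) and Mdm2 (-0.23 ± 0.07). None of the 90 calls in these 7 lists changed sign with scale or cyclic loess normalisation, and 20 and 11 of them lost their call.

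**Figure D4:**
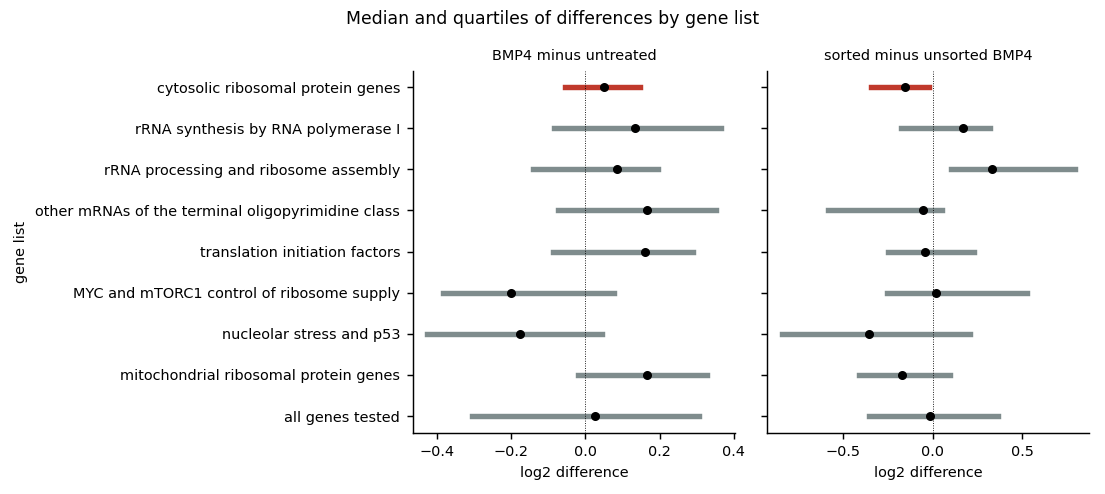
Median (dot) and quartiles (bar) of the log2 difference for the 73 cytosolic ribosomal protein genes (red), 7 lists of related genes and all genes tested, for BMP4 minus untreated (left) and the sorted fractions minus unsorted BMP4 (right), each with its own horizontal axis. For BMP4 the members' quartiles, at -0.05 and 0.15, lie inside those of all genes, at -0.30 and 0.31. The members' median was -0.08 with cyclic loess normalisation.

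The second comparison set GFP positive against GFP negative cells, both sorted after BMP4, and asked whether ribosomal protein mRNAs differed with the reporter. No member was called in limma in either direction, against 5.39% of all genes, 3.07% higher and 2.32% lower. At an unadjusted p under 0.05 there was 1 member, against 18.6% of all genes, and no member was called under any alternative run. Of the 110 other bright genes, 2 were called (1.82%). Arrays did not overlap for 4 members (5.48%), among them Rps13, Rps15a and Rps4x, against 27.4% of all genes, while 5.37% of all genes were both called and not overlapping.

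The median member differed by 0.01, beside -0.01 for all genes, and the members' median was -0.06 with scale and 0.05 with cyclic loess normalisation. Without regard to sign the median was 0.05 for members and 0.10 for all genes. The 95% confidence intervals of the members lay between -0.54 and 0.33. The member with an unadjusted p under 0.05 was Rps15a, a protein of the small subunit, with 7.47, 7.60 and 7.77 on GFP positive arrays, against 7.86, 7.98 and 7.90 on GFP negative arrays. Its groups did not overlap, but the difference of -0.30 ± 0.11 missed the threshold (adjusted p = 0.153; interval -0.54 to -0.06). Rpl36, which had the largest difference with BMP4, had 12.30, 12.21 and 12.60 on GFP positive arrays, against 12.51, 12.17 and 12.43 on GFP negative arrays, and these overlapped.

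The 40 lower-ranked probes gave 0 calls between the fractions, beside 4.42% of all probes. In the 7 lists, 1 gene was called, beside 5.39% of all genes. This gene, Mxd4, was higher in GFP positive cells by 0.34 ± 0.08 (limma adjusted p = 0.031) and lost its call with scale normalisation. The other 6 lists had no call in this comparison. A p that misses the threshold does not show that the fractions have equal levels, and the intervals above give the sizes that these arrays leave possible.

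The third comparison set both sorted fractions together against unsorted BMP4 cells. Sorting, cell fraction and any difference in array run cannot be told apart in it, and the sorted arrays had the lower median raw signal given above. Of 73 members, 8 were higher and 37 lower in sorted cells, while the split was 2 and 43 with scale normalisation and 6 and 37 with cyclic loess normalisation. The share called was 61.6%, against 70.1% of all genes, of which 34.8% were higher and 35.4% lower. Without the detection filter these shares were 56.6% of members and 29% of all genes. Of the 110 other bright genes, 75 were called (68.2%), 42 higher and 33 lower. Groups did not overlap for 44 members (60.3%), against 59.5% of all genes, and 40 members were both called and not overlapping, against 58.8% of all genes. At an unadjusted p under 0.05 there were 48 members, against 72.4% of all genes.

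The median member was -0.15, against -0.02 for all genes and 0.02 for the other bright genes. With scale normalisation the members' median was -0.25 and that of all genes shifted to -0.14, a gap of -0.11 for the members against all genes. Large subunit genes had 6 higher and 25 lower of 43, with a median of -0.19, and small subunit genes 2 higher and 12 lower of 30, with a median of -0.13. The count of higher members was 5 without GFP positive replicate 3 and 5 without GFP negative replicate 3. This comparison and the first share the BMP4 arrays.

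**Figure D5:**
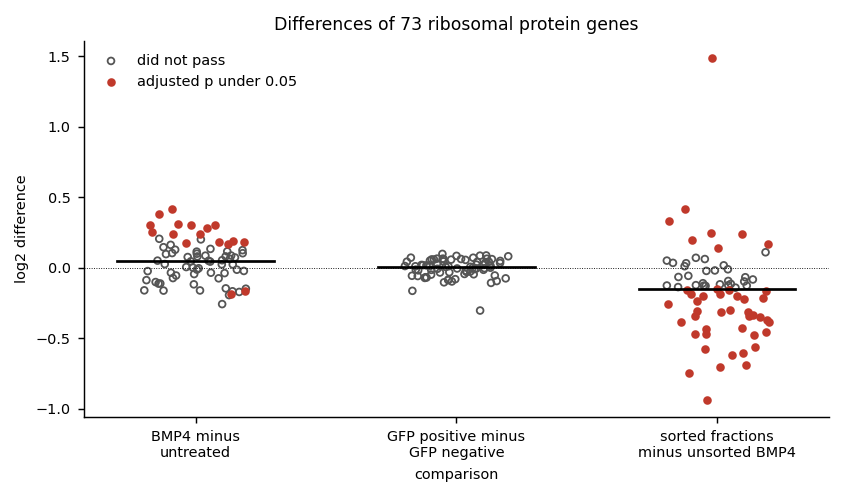
Log2 difference of each of the 73 ribosomal protein genes (points, filled red where the adjusted p is under 0.05) in the 3 comparisons, with the median as a bar. There are 17 filled points for BMP4 minus untreated, 0 for GFP positive minus GFP negative and 45 for the sorted fractions minus unsorted BMP4. In the last, Rps15a, read by a dim probe (mean raw signal 168), lies at 1.49 and Rpl13a at -0.94. The medians are 0.05, 0.01 and -0.15, and with cyclic loess normalisation the first is -0.08, while with scale normalisation the second is -0.06.

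By the brightest probe, Rps15a was the one member with a log2 difference of at least 1 in any comparison, against 11.2% of all genes called at that size in this one. Its signal was 7.47, 7.60 and 7.77 on GFP positive arrays and 7.86, 7.98 and 7.90 on GFP negative arrays, against 6.34, 6.12 and 6.36 on unsorted BMP4 arrays. All 6 sorted arrays were above all unsorted ones, untreated included (6.29, 6.41 and 6.71). The difference was 1.49 ± 0.10 (adjusted p = 1.83e-08), or 2.81-fold, from the probe with the lowest raw signal of all members. Its mean raw signal was 168, against a median of 18609 for the members. How well so dim a probe reports the mRNA of Rps15a was not tested.

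Rpl13a, which can be released from the ribosome to silence inflammatory mRNAs in human monocytic cells, fell furthest among the members. It had 10.59, 10.50 and 10.65 on GFP positive arrays and 10.59, 10.58 and 10.53 on GFP negative arrays, against 11.37, 11.69 and 11.48 on BMP4 arrays (-0.94 ± 0.07, adjusted p = 1.23e-07). The fractions coincided and stood apart from the unsorted arrays. Rpl22 had 9.93, 9.96 and 9.79 on GFP positive arrays and 9.85, 9.74 and 9.88 on GFP negative arrays, against 10.53, 10.66 and 10.63 on BMP4 arrays (-0.75 ± 0.06, adjusted p = 1.91e-07). Rps4x had 13.84, 13.84 and 13.83 on GFP positive arrays and 13.88, 13.90 and 13.96 on GFP negative arrays, against 14.55, 14.63 and 14.56 on BMP4 arrays (-0.70 ± 0.06, adjusted p = 1.91e-07). Neither gene had overlapping groups.

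Further falls in sorted cells were -0.69 for Rps3a1, whose symbol on the array is the older Rps3a, -0.62 for Rpl35a, -0.60 for Rpl4 and -0.57 for Rpl36a. Rps24 fell by 0.56, Rplp2 by 0.47 and Rpl39 by 0.47 on the log2 scale, and these 7 had adjusted p-values in limma of 7.5e-07 to 1e-05 and groups that did not overlap. They belong to both subunits, the stalk and the exit tunnel. Among the other named members that were called lower, Rpl7 fell by 0.35, Rps27 by 0.34, Rps3 by 0.32, Rps15 by 0.26, Rpl8 by 0.23 and Rpl3 by 0.21 on the log2 scale.

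Among the higher members, Rpl19 had 14.76, 14.61 and 14.77 on GFP positive arrays and 14.60, 14.72 and 14.78 on GFP negative arrays, against 14.39, 14.31 and 14.18 on BMP4 arrays (0.42 ± 0.10, adjusted p = 0.00175). Rps6 had 13.53, 13.44 and 13.59 on GFP positive arrays and 13.53, 13.48 and 13.60 on GFP negative arrays, against 13.19, 13.18 and 13.22 on BMP4 arrays (0.33 ± 0.08, adjusted p = 0.00211). Neither gene had overlapping groups, but both took the opposite sign where the mean of their probes was used (-0.06 and -0.05). Rpl31 was higher by 0.17, Rplp1 by 0.20 and Rpl41, the smallest ribosomal protein, by 0.25. With the mean of its probes Rpl31 differed by -0.31, and its other probes were called lower, at -0.60 ± 0.09 and -0.51 ± 0.09. Rpl31, Rplp1, Rpl41 and Rps6 lost their call with scale normalisation, and Rplp1 and Rpl41, the last named after its values were seen, also with cyclic loess normalisation. Rpl36al was higher by 0.14, but differed by -0.04 with scale normalisation.

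Of the 40 lower-ranked probes, 6 were higher and 22 lower in sorted cells, beside 69.4% of all probes called. Among the 36 of them detected on every array, 5 were higher and 19 lower, with a median of -0.20. The other lower calls came from dim probes of Rpl21, at mean raw signals of 72.1, 68.2 and 59.6, detected on 6, 5 and 4 arrays. Rpl19, Rpl23, Rpl31, Rps13 and Rps6 had probes called in both directions. The other probes of Rpl23, a protein of the large subunit, differed by 1.16 ± 0.09 and -0.88 ± 0.09, around a brightest probe at -0.08 ± 0.07. Those of Rps13, a protein of the small subunit, differed by 1.29 ± 0.09 and -0.26 ± 0.07, around a brightest probe at -0.11 ± 0.06. Single genes of the family in this comparison thus depended on the probe read. The lower-ranked probe of Rpl27a, named after its value was seen, differed by -1.25 ± 0.07 and its brightest by -0.19 ± 0.06.

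The medians of the ribosome supply lists went in different directions between sorted and unsorted BMP4 cells. Their counts stand beside 70.1% of all genes called, 34.8% higher and 35.4% lower. Of 30 rRNA processing and assembly genes, 19 were higher and 5 lower, with a median of 0.33, which was 0.22 with scale and 0.37 with cyclic loess normalisation. Pes1 was higher by 1.57 ± 0.07, Ncl, the nucleolar protein nucleolin, by 1.51 ± 0.07, Nmd3, the export adaptor of the large subunit, by 1.09 ± 0.11 and Heatr1 by 1.03 ± 0.08. Mitochondrial ribosomal protein genes had 14 higher and 35 lower of 68, with a median of -0.17, which was -0.29 with scale normalisation. The other TOP mRNAs had 3 higher and 8 lower of 18, with a median of -0.05, which was -0.23 with scale and -0.09 with cyclic loess normalisation. Initiation factors had 6 in each direction of 19 and a median of -0.04, but 4 higher and 9 lower and a median of -0.16 with scale normalisation. Polymerase I genes had 4 higher and 2 lower of 10 and a median of 0.17, but 2 higher and 4 lower and a median of 0.03 with scale normalisation. The MYC and mTORC1 list had 8 higher and 6 lower of 19 and a median of 0.02. Its split was 7 and 7 with a median of -0.09 with scale normalisation, and 8 and 4 with a median of 0.07 with cyclic loess normalisation. The p53 list had 2 higher and 4 lower of 7.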

How the data were processed

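Total RNA of 12 samples, purified on RNeasy columns and turned into biotinylated cRNA, was hybridised to Illumina MouseWG-6 V2.0 bead arrays, per the labels. The deposited scanner table was exported from BeadStudio 3.4.0 without normalisation, per the file headers. For each of 45281 probes it holds the mean bead signal, deposited as an intensity, and a detection value, deposited as a fraction, which is 1 minus the detection p. A processed table of log2 values was also deposited. The submitters' processing notes name lumi, and the other steps behind it were not given in the sources used here. It was left out because none of its identifiers could be tied to a named probe.

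Background was removed with nec, which used the detection p, and the signals were offset by 16, log2 transformed and then quantile normalised with limma 3.58.1 (R 4.3.3). A probe was kept, as 15448 were and 29833 were not, if its detection p was under 0.01 on 3 or more arrays. Symbols were brought to current RefSeq names where equal (13430) or matched by a synonym (8112), while 9948 stayed unchanged. Each gene was represented by the passing probe with the highest mean normalised log2 signal over the 12 arrays (10597 genes). No array was identical to another. Quantile normalisation gives all arrays one distribution and so hides any global change.

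A limma model with a mean for each of the 4 groups was fitted to all 12 arrays, with variances moderated by eBayes (8 residual and 5.08 prior degrees of freedom). Groups came from the labels. p-values were adjusted over all genes (Benjamini-Hochberg), with calls under 0.05 and 95% confidence intervals, and lists were described by counts and medians only. The fit was tested on simulated data. The members, lists and naming rule were chosen with earlier results of these data known. Genes were named where they were among the 10 largest called rises or falls with non-overlapping arrays in a comparison, were called at a log2 difference of at least 1, had no detected probe or probes called in both directions, or stood on a fixed list of paralogs, stalk and well-known members. Of each list up to 4 called genes with the largest change were named. Alternatives in background correction, offset, normalisation, filter, probe choice, array weights, replicate block, threshold, groups in the fit and single arrays left out are given in the closing section. A few genes are not reported here by name. Promoters of 300 bases came from RefSeq (GRCm38.p6), with the first entry of a gene used.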

Additional observations from a re-analysis of the deposited data

How the results depend on the processing

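In the BMP4 comparison, 15 members were higher and 2 lower. The count of higher members was 9 with scale normalisation, 7 with cyclic loess normalisation, 9 at an adjusted p under 0.01 and 9 with the compared groups alone. The count of lower members was 0, 8, 0 and 0 in those settings. With the replicate number as a block it was 13 higher and 1 lower. Deviations of same-numbered arrays correlated at -0.05, -0.04 and -0.01 between BMP4 and untreated. Between GFP positive and GFP negative they correlated at 0.15, 0.13 and -0.01. Differently numbered arrays were not compared, so these values do not settle whether the numbers pair the arrays. Leaving out 1 array at a time gave 9 to 15 higher and 0 to 5 lower. The members' median of 0.05 was -0.0789 with cyclic loess normalisation and 0.0256 to 0.0746 with 1 array left out. In every alternative the share of members called, 12.3% to 28.8%, lay below that of all genes, 21.2% to 62.8%, and the shares were closest (18.4% and 21.2%) with no detection filter. Between GFP positive and GFP negative cells no alternative gave a call, and the median of 0.01 was -0.0615 with scale and 0.045 with cyclic loess normalisation.

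Between sorted and unsorted BMP4 cells, 8 members were higher and 37 lower. The higher count was 2 with scale normalisation, 4 at an adjusted p under 0.01 and 5 to 8 with 1 array left out. With no detection filter the share of members called, 56.6%, lay above that of all genes, 29%. In every other alternative it lay below. The median of -0.15 was -0.25 with scale and -0.17 with cyclic loess normalisation.

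Rps20 reversed in the BMP4 comparison, to -0.33 with scale and -0.46 with cyclic loess normalisation, -0.02 with the mean of probes, -0.32, -0.27 and -0.32 without BMP4 replicates 1, 2 and 3, and -0.30 without GFP negative replicate 1, and its highest value with 1 array left out was 0.27. In the sorted comparison it was 0.38 with cyclic loess normalisation, 0.39, 0.34 and 0.39 without BMP4 replicates 1, 2 and 3, and 0.40 without GFP negative replicate 1, and its lowest value with 1 array left out was -0.14. Except with the mean of probes, another probe stood for Rps20 in each of these settings. With the mean of kept probes, Rpl21 was -0.0072 and Rps27a 0.33 in the BMP4 comparison. In the sorted comparison the mean of probes gave Rps6 -0.0549, Rps19 0.17, Rps27a 0.24, Rpl19 -0.055, Rpl31 -0.31 and Rps13 0.31, and scale normalisation gave Rpl36al -0.0416. Over the named members, 888 of 1012 values in the BMP4 comparison kept their side of the threshold, 94 fell short of it, 21 passed it and 9 reversed. A change of sign counted as a reversal only where the main or the alternative value was called. In the sorted comparison these counts were 929, 59, 12 and 12 of 1012. Between the GFP fractions all 1012 stayed uncalled, though signs could change, as for Rpl10 (0.011, and -0.0566 at the lowest).

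The cause of the differences between normalisations was not tested. Signal over background limits the dim probes, such as that of Rps15a at a mean raw signal of 168. Whether the top of the scanner's range limits the bright ones was not tested. The authors' processed table was not run as an alternative, since its identifiers could not be linked.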
